A study of Arabidopsis thaliana with 3 samples.

Results

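A set of 10 genes of the Arabidopsis ubiquitin-specific protease (UBP) family was examined for peaks of UBP5-GFP, another member of the same family. The set held UBP3 (AT4G39910), UBP4 (AT2G22310), UBP6 (AT1G51710), UBP7 (AT3G21280), UBP14 (AT3G20630), UBP15 (AT1G17110), UBP16 (AT4G24560), UBP17 (AT5G65450), UBP18 (AT4G31670) and UBP19 (AT2G24640), chosen by locus among the 27 UBP genes and 27444 protein-coding genes on chromosomes 1 to 5. The annotation gave all 10 the symbol used here. A gene was counted as called where a peak overlapped its body or the 1000 bp upstream of its annotated transcription start site (TSS) by at least 1 bp in each replicate. By this rule 6 of the 10 genes were called, beside 34.0% of all protein-coding genes and 43.8% of those within the length range of the 10.

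The study mapped UBP5 on chromatin by chromatin immunoprecipitation and sequencing (ChIP-seq). UBP5-GFP IP: 2 replicates came from whole seedlings of ecotype Col-0 at 12 days after germination, which carried the transgene UBP5pro::gUBP5-GFP, genomic UBP5 fused to green fluorescent protein under its own promoter, in the ubp5 mutant. Input: 1 sample of the sheared chromatin before precipitation was set against both. Cross-links were made with EGS (25 mM) and then formaldehyde (1%), and the chromatin was sheared into fragments of 200 to 500 bp and precipitated with an antibody against GFP. No precipitate from plants without GFP was analysed here, so UBP5 occupancy and any precipitation background that the input does not show cannot be told apart. Whole seedlings mix many cell types, and a gene bound in few cells and a gene bound weakly in all cells cannot be told apart either.

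Ubiquitin is a small protein that cells attach to other proteins, as single units or as chains, to mark them for degradation by the proteasome or to change what they do. Deubiquitinases cut it off again. The UBPs are the largest deubiquitinase family of plants and are cysteine proteases that share conserved catalytic boxes and differ in the domains around them. UBP5 removes ubiquitin from histone H2A. The 10 genes here code for enzymes known mostly for other work. UBP3 and UBP4 act in pollen development, UBP6 and UBP7 carry a ubiquitin-like domain and associate with the proteasome, UBP14 is the relative of isopeptidase T that takes apart free ubiquitin chains, and UBP15 to UBP19 share a MYND-type zinc finger, with roles in organ growth (UBP15), salt tolerance (UBP16, together with UBP17) and embryo development (UBP19).

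The 6 called genes were UBP3, UBP6, UBP7, UBP15, UBP16 and UBP17. The 10 genes are long, with a median of 4249 bp from start to end, against 2078 bp for all protein-coding genes. The length range set beside them in the count was 2382 to 5800 bp, which holds 10175 protein-coding genes. Within the gene body alone 5 of the 10 were called, beside 29.0% of all protein-coding genes, because the peak counted for UBP7 lies wholly upstream of it. Of all genes called by the window, 14.6% had no peak in the body in 1 or both replicates. UBP18 had a peak in replicate 1 only. UBP4, UBP14 and UBP19 had none in either replicate. Replicate 1 alone called 7 of the 10, beside 38.9% of all protein-coding genes, and replicate 2 alone called 6, beside 36.6%. No test was made of these counts.

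Fold enrichment is the ratio of the UBP5-GFP pileup, the number of fragments that cover the summit, to the level the peak caller expected there from the input, each plus 1. The q-value is the p-value of that pileup adjusted over the genome, and its −log10 grows with depth, so it was compared only within a replicate. Replicate 1 had 10266 peaks with a median fold enrichment of 2.31, and replicate 2 had 10898 with a median of 1.92. Where the input gave only its background, the expected level was 44.0 fragments in replicate 1 and, once the caller's scaling was undone, 168 in replicate 2. The lowest fold enrichment called at that background was 1.53 in replicate 1 and 1.32 in replicate 2. At all 6 called genes, and at UBP18, the level under the summit was this background. The fragment numbers give 95% exact Poisson intervals of the fold enrichment, which cover counting error only.

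The members' peaks were low to middling and much alike. Among the 6 called genes the fold enrichment lay between 2.00 and 2.31 in replicate 1 and between 1.69 and 1.97 in replicate 2. For UBP7 the value was that of the peak upstream of it. All 6 lay below the median of all 9337 called protein-coding genes, which was 2.54 in replicate 1 and 2.03 in replicate 2. Those medians take the strongest peak of each gene. Set beside all single peaks, the members stood above 25.9% to 49.8% in replicate 1 and above 29.4% to 53.3% in replicate 2. UBP15 was highest and UBP6 lowest in replicate 1, with 103 fragments at the summit of UBP15 and 89 at that of UBP6. In replicate 2 UBP16 was highest with 332 fragments and UBP6 was again lowest with 286. The log2 ratio of these fragment numbers, highest over lowest, was 0.21 in replicate 1 (95% exact binomial interval −0.21 to 0.64) and 0.22 in replicate 2 (−0.02 to 0.45). The intervals of all 6 genes overlapped in each replicate, and no neighbours in the order differed beyond counting error.

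**Figure D1:**
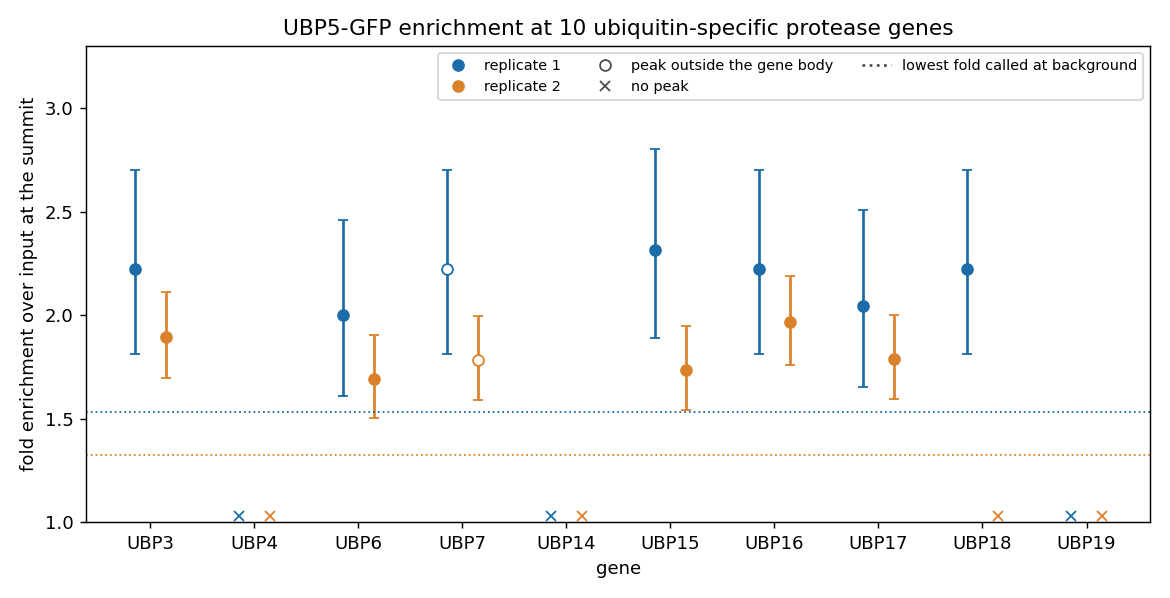
Fold enrichment over the input (vertical axis, no unit) at the strongest peak of each of the 10 genes in replicate 1 and replicate 2; bars are 95% exact Poisson intervals of the summit fragments, crosses mark no peak, open circles a peak outside the gene body, and dotted lines the lowest fold called at background. The 6 genes with peaks in both replicates lie between 1.69 and 2.31 with overlapping bars within each replicate, and UBP4, UBP14 and UBP19 show crosses only.

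The peaks sat at the start of the genes, as the map around the TSS shows. Apart from UBP7, the summits of the called genes fell between 263 and 516 bp downstream of the TSS, and UBP18 in replicate 1 had its summit at 352 bp. Over all peaks, the summit was 0 to 500 bp past the closest TSS of a protein-coding gene in 70.0% of cases in replicate 1 and 61.3% in replicate 2. In every called gene but UBP7 the peak overlapped that gene and no other annotated gene.

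**Figure D2:**
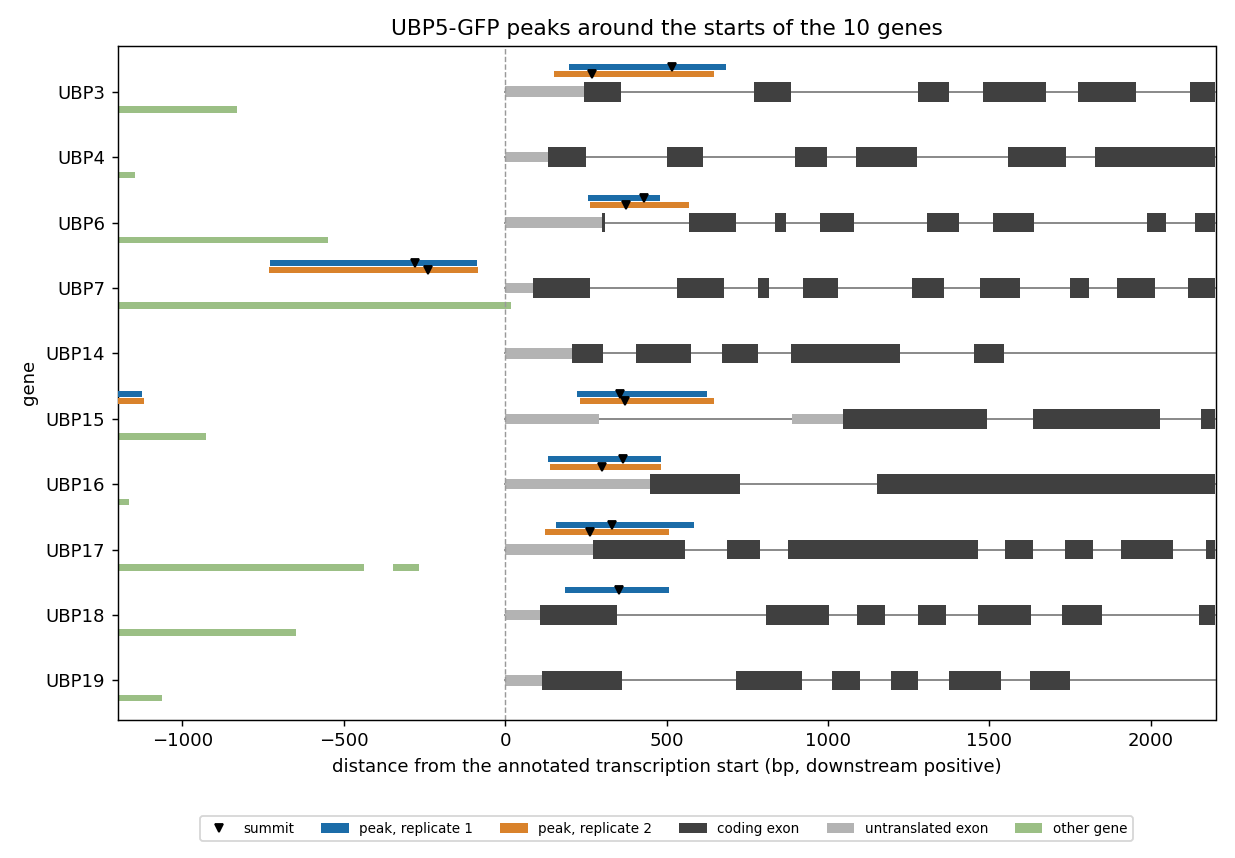
Peaks (blue, replicate 1; orange, replicate 2) and summits (triangles) along the first part of each gene, with distance from the annotated TSS in bp on the horizontal axis, coding exons in dark grey, untranslated exons in light grey and other genes in green. Peaks of 5 genes lie over the first exon or first intron in both replicates, those of UBP7 lie inside the neighbouring gene upstream, and UBP18 has a peak in replicate 1 only.

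UBP3 and UBP4 code for close paralogs, proteins of 371 and 365 residues with 92.9% identical residues over the 365 aligned. UBP3 (chromosome 4, 18511521 to 18514382, minus strand) was enriched 2.22-fold over the input in replicate 1 and 1.89-fold in replicate 2, a mean of 2.06 ± 0.23 (SD, n = 2), with −log10 q of 10.6 and 16.7. UBP4 (chromosome 2, 9476578 to 9478959, minus strand) had no peak in either replicate. The nearest peaks to UBP4 lay 12182 bp away in replicate 1 and 12220 bp away in replicate 2, both beyond its 3′ end in AT2G22270. A bound can be given if the level at UBP4 was the background and no summit above the lowest fold called there went uncalled. UBP3 minus UBP4 would then be at least 0.54 in replicate 1 and 0.52 in replicate 2 on the log2 scale of fold enrichment. Whether a short summit above that fold went uncalled was not tested. The level at UBP4 itself was not measured.

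Only uniquely mapped reads entered the peak lists, and near-identical paralogs can lose reads that way. The longest stretch identical between the UBP3 and UBP4 genes was 53 bp. Between the first 700 bp of UBP3, which hold its peaks, and UBP4 it was 35 bp. Only exact runs were measured, so longer stretches with a few mismatches were not counted. The effect of unique alignment on the pair was not tested.

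The summit of UBP3 moved more between replicates than most. It lay 516 bp downstream of the TSS in intron 1 in replicate 1 and 269 bp downstream in exon 1, 26 bp past the first coding base, in replicate 2. The separation of 247 bp was larger than that of 93.9% of the 8887 peaks of replicate 1 that overlap a peak of replicate 2, whose median was 39 bp. The peaks themselves covered nearly the same stretch, 197 to 685 bp downstream of the TSS in replicate 1, and 152 to 647 bp downstream in replicate 2. The sequence around each summit is shown here because these positions hold different kinds of sequence, AT-rich intron and coding exon, with 32.3% and 52.2% G or C within 100 bp of the summit against a median of 41.3% and 41.8% over all summits of the same replicate; the capital letter marks the summit base, and the gene's strand is given 5′ to 3′.
UBP3 replicate 1, chr4:18513806-18513926: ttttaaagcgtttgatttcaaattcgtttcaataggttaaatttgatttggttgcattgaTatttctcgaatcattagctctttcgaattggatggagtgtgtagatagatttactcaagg
UBP3 replicate 2, chr4:18514098-18514127: ggctccaaactcgaGaaagctctcggcgac

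UBP6 and UBP7 both had peaks by the rule, at different places. UBP6 (chromosome 1, 19175609 to 19180195, minus strand), whose product also binds calmodulin, was enriched 2.00-fold over the input in replicate 1 and 1.69-fold in replicate 2, a mean of 1.85 ± 0.22 (SD, n = 2), with −log10 q of 7.36 and 10.4. Its summits lay 429 and 376 bp downstream of the TSS, both in intron 1, and its peaks were the narrowest of the set at 223 and 308 bp. A second annotated mRNA of UBP6 starts 792 bp further in, and both summits lie before that start.

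UBP7 lies on chromosome 3 at 7477930 to 7482125 on the minus strand. The peak counted for it was enriched 2.22-fold over the input in replicate 1 and 1.78-fold in replicate 2. The mean was 2.00 ± 0.31 (SD, n = 2), with −log10 q of 10.6 and 13.0. The summits lay at −279 and −239 bp, upstream of the UBP7 TSS, and the peaks ended at −88 and −85 bp without reaching the gene. AT3G21290, a protein-coding gene on the other strand, starts 19 bp inside UBP7, so that the genes overlap head to head. Seen from AT3G21290 the same summits lay 298 and 258 bp downstream of its TSS, in its 5′ UTR. The peaks overlapped AT3G21290 and not UBP7. To which of the 2 genes the signal belongs cannot be told apart by position alone.

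UBP6 minus UBP7 was −0.15 in replicate 1 and −0.07 in replicate 2 on the log2 scale of fold enrichment, a mean of −0.11 ± 0.06 (SD, n = 2). For UBP7 this takes the peak in AT3G21290, so the difference sets the UBP6 peak against that peak. The log2 ratio of summit fragments, UBP6 over UBP7, had a 95% exact binomial interval of −0.58 to 0.27 in replicate 1, and one of −0.31 to 0.16 in replicate 2, so the difference was within counting error in each. In −log10 q, UBP6 minus UBP7 was −3.25 in replicate 1 and −2.64 in replicate 2. The proteins have 482 and 532 residues, and 83.9% of 477 aligned residues are identical. Their genes share no identical stretch longer than 35 bp.

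UBP14 (chromosome 3, 7202748 to 7208547, minus strand), the longest of the 10 genes at 5800 bp, had no peak in either replicate. In replicate 2 a peak with a fold enrichment of 1.72 lay 333 bp beyond its 3′ end, in AT3G20620. The nearest peak in replicate 1 lay 7385 bp beyond that end, with a fold enrichment of 1.73.

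UBP15, which promotes cell proliferation and the growth of leaves, petals and seeds, had the highest fold enrichment of the set in replicate 1, 2.31, and 1.74 in replicate 2, a mean of 2.02 ± 0.41 (SD, n = 2), with −log10 q of 12.0 and 11.6. Its fold enrichment in replicate 1 was 1.33 times that in replicate 2, and 76.5% of all overlapping peaks had a lower ratio. UBP15 lies on chromosome 1 at 5845675 to 5850934 on the minus strand. Its summits, 356 and 373 bp downstream of the TSS and 17 bp apart, were the closest pair of the set. They fall in intron 1 of 2 of its 3 mRNAs and in the 5′ UTR of the other, and lie at −689 and −672 bp from the first coding base. A further peak in each replicate, outside the window, ended at −1123 and −1118 bp from the TSS, within CAT8 (AT1G17120), whose start faces that of UBP15.

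UBP16 and UBP17 were both called, with summits at like distances from the TSS. UBP16 (chromosome 4, 12679200 to 12684976, minus strand) was enriched 2.22-fold over the input in replicate 1 and 1.97-fold in replicate 2, a mean of 2.09 ± 0.18 (SD, n = 2), with −log10 q of 10.6 and 19.0. UBP17 (chromosome 5, 26157535 to 26161331, plus strand) had 2.05 in replicate 1 and 1.79 in replicate 2, a mean of 1.92 ± 0.18 (SD, n = 2), with −log10 q of 7.97 and 13.3. UBP16 was higher in both replicates.

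UBP16 minus UBP17 was 0.12 in replicate 1 and 0.14 in replicate 2 on the log2 scale of fold enrichment, a mean of 0.13 ± 0.01 (SD, n = 2). The summit of UBP16 held 99 fragments and that of UBP17 91 in replicate 1, and the log2 ratio had a 95% exact binomial interval from −0.30 to 0.55. In replicate 2 the summit of UBP16 held 332 fragments and that of UBP17 302, with an interval from −0.09 to 0.37. The difference was thus within the counting error of each replicate. An SD over 2 values is too uncertain to measure the spread between replicates. The UBP16 −log10 q was above that of UBP17 by 2.64 in replicate 1 and by 5.73 in replicate 2. With 2 replicates no p-value was computed for any pair.

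The summits of UBP16 lay 364 and 300 bp downstream of its TSS and those of UBP17 330 and 263 bp, all in exon 1. In UBP16 both fell in the 5′ UTR, at −84 and −148 bp from the first coding base. In UBP17 they straddled the coding start, 59 bp past it in replicate 1 and at −8 bp in replicate 2. UBP17 has a second mRNA that starts 328 bp further in, 2 bp before the summit of replicate 1. The proteins, of 1008 and 750 residues, share 45.7% of 737 aligned residues, and the longest identical stretch of their genes is 15 bp.

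UBP18 and UBP19 were not called. UBP18 (chromosome 4, 15335743 to 15339613, minus strand) had a peak in replicate 1 with a fold enrichment of 2.22 and −log10 q of 10.6, whose summit lay 352 bp downstream of the TSS in intron 1. That peak had the 99 summit fragments that UBP3, UBP7 and UBP16 also had in replicate 1, which gives the 4 genes the same fold enrichment. In replicate 2, which had the higher background level in fragments and the lower calling limit, the nearest peak to UBP18 lay 16160 bp away. Of the 155 peaks of replicate 1 with that fold enrichment, 138 overlapped a peak of replicate 2, or 89.0%, and the peak of UBP18 was among the rest.

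UBP19 (chromosome 2, 10475153 to 10479454, minus strand) had no peak, and the nearest ones lay 7920 bp away in replicate 1 and 10010 bp away in replicate 2, both upstream. UBP18 minus UBP19 could be bounded only in replicate 1, at 0.54 or more on the log2 scale. That bound holds under the conditions given for UBP4, here applied to UBP19. Neither gene was called in replicate 2. The proteins have 631 and 672 residues with 70.4% of 621 aligned residues identical, and the longest identical stretch of the genes is 32 bp.

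Thus in 2 of the 4 paralog pairs, UBP6 with UBP7 and UBP16 with UBP17, both genes were called by the window. UBP7 counted only through the peak in AT3G21290, and with the gene body alone it was not called. In 1 pair UBP3 alone was called, and in the pair of UBP18 and UBP19 neither was. Within the MYND group UBP15, UBP16 and UBP17 were called in both replicates. Over the aligned residues the UBP15 protein was 37.9% identical to UBP16 and 41.4% identical to UBP17, and UBP16 was 37.9% identical to UBP18 and 37.1% identical to UBP19.

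Compared with the rest of the family the called members were in the lower part. Of the other 17 UBP genes 13 were called, beside 34.0% of all protein-coding genes. Some of the 17 are longer than any member, such as UBP13 at 9840 bp. The 13 had values of 1.58 to 7.25 in replicate 1 and 1.49 to 6.40 in replicate 2. The median fold enrichment was 2.22 over the 6 called members and 2.78 over these 13 genes in replicate 1. In replicate 2 it was 1.79 over the 6 members and 2.26 over the 13. In replicate 1, 10 of the 13 lay above the highest member, and in replicate 2, 7 did. The counting intervals of UBP2, UBP10, UBP12 and UBP13 in replicate 1 overlapped that of UBP15, the highest member there. In replicate 2 the interval of UBP10 overlapped that of UBP16. UBP20 and UBP21 had the highest values, 7.25 and 5.07 in replicate 1 and 6.40 and 4.19 in replicate 2. UBP26, a histone H2B deubiquitinase, had values within the members' range, 2.07 in replicate 1 and 1.81 in replicate 2. UBP8 lay below that range with 1.58 and 1.51, and its intervals overlapped those of UBP6. The study describes UBP12 and UBP13 as redundant histone H2A deubiquitinases, and they also act in the circadian clock and flowering time. UBP12 and UBP13 had 2.60 and 2.45 in replicate 1, above the range of the members but with intervals overlapping that of UBP15. In replicate 2 they had 1.89 and 1.90, within the range. Values over called genes leave out those under the calling limit, so these medians describe the called genes only.

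At UBP5 itself the fold enrichment was 3.17 and 2.78 over a level 5.77 and 5.47 times the background, at the locus whose genomic sequence the transgene also carries. No member peak had a raised level. UBP1, UBP11 and UBP22 had no peak, UBP23 had one in replicate 1 only, with 1.62, and UBP27 was called in replicate 2 only through a peak upstream of it.

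Of 6 deubiquitinase genes of other families 5 were called, beside 34.0% of all protein-coding genes. UCH2, coding for a ubiquitin C-terminal hydrolase, had 4.29 in replicate 1 and 3.50 in replicate 2, and UCH3 had 3.18 and 2.93, all above every member. In replicate 1 the counting interval of UCH3 overlapped that of UBP15. AMSH1, a zinc metalloprotease that takes apart lysine 63-linked chains, had 1.91 and 1.46, below every called member, and AMSH3 had no peak. The intervals of AMSH1 overlapped those of UBP6 in both replicates. UCH1 and AMSH2 were called in both replicates, in replicate 2 AMSH2 only through an upstream peak in AT1G10590.

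**Figure D3:**
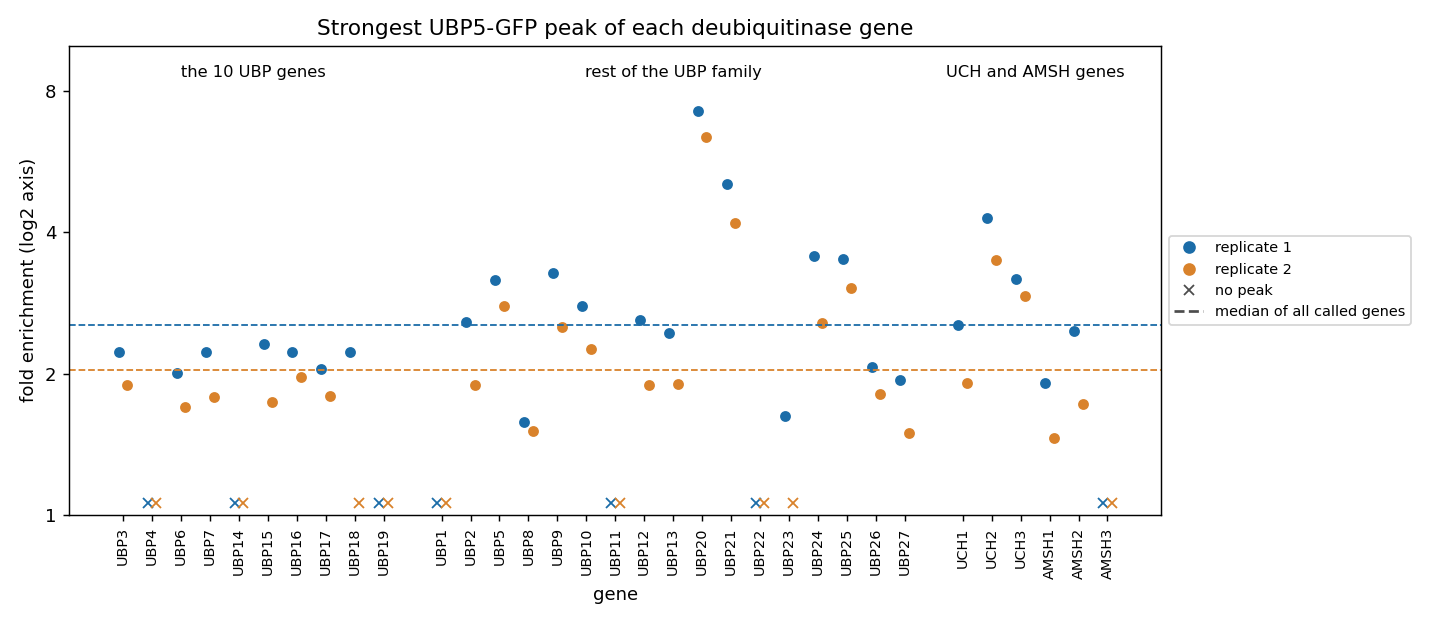
Fold enrichment of the strongest peak (vertical log2 axis) in replicate 1 and replicate 2 for the 10 UBP genes, the other 17 UBP genes and 6 UCH and AMSH genes; crosses mark no peak and dashed lines the median of all called protein-coding genes in that replicate, 2.54 and 2.03. Every called gene of the 10 lies under its replicate's line. UBP5, UBP9, UBP10, UBP20, UBP21, UBP24, UBP25, UCH2 and UCH3 lie above the line in both replicates. For UBP7, UBP27, UCH1 and AMSH2 the strongest peak lies upstream of the gene body in both replicates.

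Among the 9337 called protein-coding genes the place of each member can be given as the share with a lower fold enrichment. UBP16 stood highest in replicate 2, above 44.8% of the called genes, and above 28.0% in replicate 1. UBP15 stood above 34.6% in replicate 1 and 24.2% in replicate 2. UBP3 stood above 28.0% and 39.1%, UBP17 above 14.9% and 29.2%, and UBP6 above 11.8% and 20.0%. UBP7, by the peak in AT3G21290, stood above 28.0% and 28.6%. The order of the members thus differed between the replicates, except for UBP6 at the bottom of both.

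**Figure D4:**
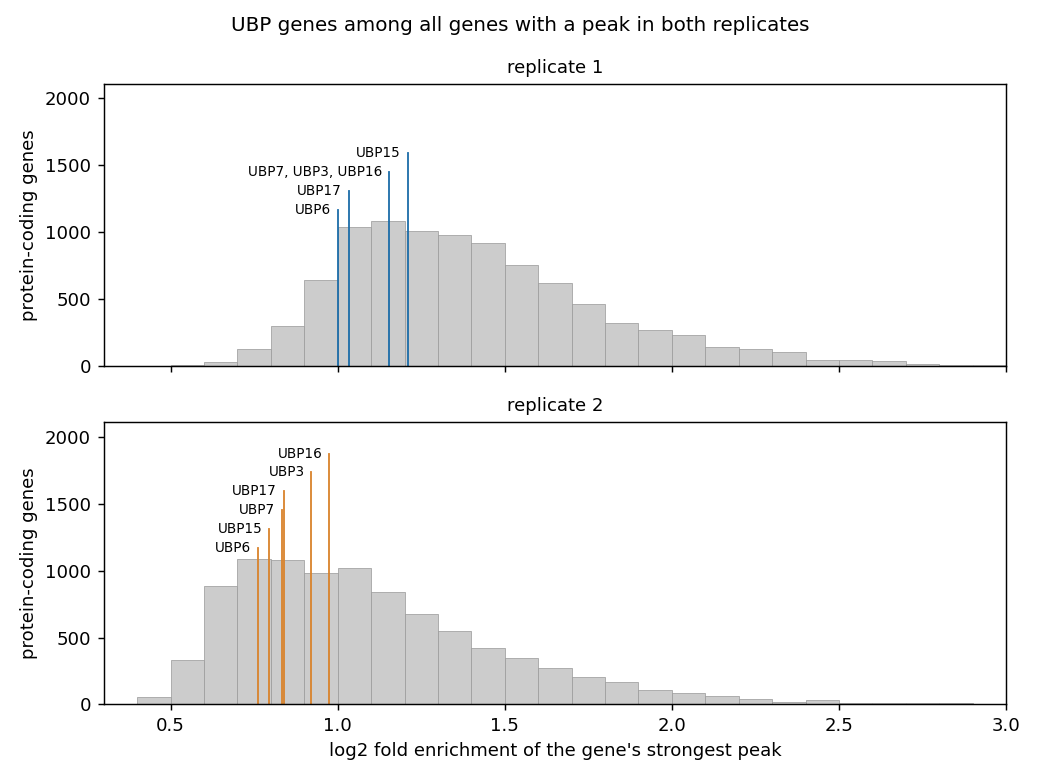
Histogram of the log2 fold enrichment of the strongest peak over all 9337 protein-coding genes called in both replicates (grey bars, genes per bin), with the 6 called UBP genes as coloured lines, for replicate 1 (upper) and replicate 2 (lower). The axis ends at 3, and the few genes beyond it, up to a fold enrichment of 18.2 and 15.3, are not drawn. The lines stand in the left part of each histogram, with UBP6 farthest left in both.

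The study linked UBP5 sites to the Telobox, bound by telomere repeat binding factors, and to GAGA repeats, bound by BPC factors. It searched for motifs around the TSS of UBP5 target genes, against control sequences without UBP5 targets. Its windows, motif model and control thus differ from the search for exact words made here. The words AAACCCTA and GAGAGAGA were searched on both strands without mismatch, and neither word can be read as the other. A word counted as within a distance where all 8 of its letters were, while each distance printed for a word is to its middle. Within 100 bp of a summit the Telobox word was found at 3 of the 13 member summits, beside 14.7% of all summits in replicate 1 and 13.7% in replicate 2. The 3 were UBP16 in replicate 2 and UBP17 in both replicates. The GAGA word was found at 2 of the 13, both at UBP16, beside 6.69% and 5.77% of all summits. Within 500 bp to each side of the TSS the Telobox word was in 5 of the 10 genes and in 23.1% of all protein-coding genes, and the GAGA word in 5 of the 10 and in 30.7%. The Telobox word was in 3 of the 6 called genes (UBP15, UBP16 and UBP17) and in 2 of the 4 others (UBP14 and UBP19). The GAGA word was in 4 of the 6 called genes (UBP7, UBP15, UBP16 and UBP17) and in 1 of the 4 others (UBP14).

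The Telobox words within 500 bp of the TSS are printed for all 5 genes that hold one. Each line gives 30 bases 5′ to 3′ on the strand of the gene, the word in capitals with 11 bases to each side, read as TAGGGTTT where it lies on the opposite strand.
UBP15, chr1:5850664-5850693: ctgaagaaattTAGGGTTTtttcttccttt
UBP16, chr4:12684753-12684782: cttgtgctctcTAGGGTTTtctttattcct
UBP16 second word, chr4:12684827-12684856: gccctctttcgAAACCCTAaaccagaagca
UBP17, chr5:26157823-26157852: aagtgaaacctTAGGGTTTcgttgtctatt
UBP14, chr3:7208329-7208358: cgatttcgcaaAAACCCTAtggagctcctc
UBP19, chr2:10479040-10479069: ttgctccttatTAGGGTTTttagattctga

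In UBP17 the word was in the first coding exon, 302 bp downstream of the TSS, 28 bp from the summit of replicate 1 and 39 bp from that of replicate 2. In UBP16 the nearer word was in the 5′ UTR, 155 and 91 bp from the summits and inside both peaks. In UBP15 it was in the 5′ UTR, with its middle 100 and 117 bp from the summits, so that it was not counted within 100 bp, and it lay inside both peaks. In UBP14 the word stood in the 5′ UTR at 204 bp and in UBP19 in an intron at 400 bp, with no peak at either gene. UBP3, UBP6 and UBP7 had peaks and no Telobox word within 500 bp of the TSS.

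The GAGA words are shown at UBP16, where they lay 13 bp or less from the summit of replicate 2, and at UBP7, where they lay between the start of UBP7 and the peak.
UBP16, chr4:12684649-12684678: ttcctggcttcTCTCTCTCgctctctctgc
UBP7, chr3:7482157-7482186: agaaagagagaGAGAGAGAgggacccaaag

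In UBP16 this word was at 313 bp from the TSS in the 5′ UTR, 51 bp from the summit of replicate 1 and 13 bp from that of replicate 2. In UBP7 the repeat was at −46 bp, outside the peaks and 233 and 193 bp from the summits. A match of these letters is a description of the sequence and was not tested as a binding site.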

How the data were processed

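The 10 genes, the gene lists and the settings were chosen with earlier results of these data known. The authors cleaned reads in SOAPnuke, mapped them on TAIR10 using Bowtie2 2.4.5, retained uniquely mapped ones and called peaks with MACS3 3.0.0 for each UBP5-GFP replicate against the same input at q under 0.01. Picard is listed in the submitters' processing notes, but duplicate removal was not stated. The deposited values used were the fold enrichment (a ratio), the −log10 p-value and −log10 q-value, and the summit position. The authors' read totals were not used: depth was solved from the deposited fold and p, whose Poisson tail fitted a single background level within 1% for 87.5% of replicate 1 peaks and 84.7% of replicate 2 peaks. Pileups were whole fragments in replicate 1 and multiples of 0.726 in replicate 2. The intervals cover counting error only, and PCR duplicates, if kept, would make them too narrow.

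Genes, exons and sequences came from RefSeq TAIR10.1, which has the same chromosomes, and every peak ended within them. Proteins were translated from the longest coding sequence and aligned globally with BLOSUM62 in Biopython 1.88; identity was counted over aligned residues. All 10 genes, the other 17 UBP genes and 6 UCH and AMSH genes were named by a fixed list. Overlaps, summit classes, word searches and depth solving were checked on simulated data. Scripts ran in Python 3.11.15. Alternatives were other windows and thresholds, each replicate alone, pileup in place of fold, the peak nearest the TSS, and wider word windows.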

Additional observations from a re-analysis of the deposited data

How the results depend on the processing

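With the window of 1000 bp, 6 of the 10 genes were called in both replicates, and the count was 6 with 500 bp upstream, with the summit inside the window, with at least 50% of the peak inside it and at −log10 q of at least 5. It was 5 with the gene body only, and between 6 and 7 with a single replicate. At −log10 q of at least 20 it was 0, with 7 of the other 17 UBP genes and 12.6% of all protein-coding genes called. At a fold enrichment of at least 2 in both replicates it was 0, with 7 and 17.7%, and at 3 or more 0, with 3 and 3.88%. These thresholds lie above the members' values in replicate 2. The other 17 genes gave 12 to 14 under every other window and replicate setting, and all protein-coding genes 29.0% to 38.9%. Among the genes within the members' length range 43.8% were called.

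UBP16 minus UBP17 was 0.12 to 0.14 and UBP6 minus UBP7 was −0.15 to −0.07 over the single replicates, and 0.13 and −0.11 from the summit pileup. The peak nearest the TSS was the strongest peak counted for each of these genes, which for UBP7 lies in AT3G21290. UBP3 minus UBP4 and UBP18 minus UBP19 had no value under any setting, since UBP4 and UBP19 had no peak. Measured from the first coding base, the mean summit of UBP15 was at −681 bp in place of 365 bp from the TSS and that of UBP16 at −116 bp in place of 332 bp. The Telobox word was at 6 of the 13 member summits within 250 bp, beside 31.0% of all summits in replicate 1 and 29.7% in replicate 2, and in 6 whole peaks, beside 27.1% and 27.7%. The GAGA word was at 8 summits within 250 bp, beside 20.3% and 18.1%, and in 2 whole peaks, beside 14.98% and 14.67%. Summits of 1 gene in both replicates share their sequence. With 2 replicates and 1 input, differences between genes within their counting intervals were not detectable at this depth.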
